A study of Mus musculus with 18 samples.

Results

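Ephrins, semaphorins, netrins and Slits are the 4 classical families of axon guidance ligands, and each signals through receptors of its own on the responding cell. Measured here were 46 genes of these families and their receptors, out of 10965 genes in all, in mouse embryonic stem cells (ESCs) with and without the transcription factor Zeb2, before and during neural differentiation (ND). The genes were found by name, as each measured gene whose symbol belongs to the ephrins (Efna, Efnb), the Eph receptors (Epha, Ephb), the semaphorins (Sema), the plexins (Plxn), the neuropilins (Nrp1, Nrp2), the netrins (Ntn), the Unc5 receptors, Neo1, the Slits or the Robo receptors. They were 8 ephrins, 9 Eph receptors, 10 semaphorins, 7 plexins, 2 neuropilins, 4 netrins and netrin receptors, 5 Slits and Robo receptors, and Unc50, which matched the name pattern Unc5 and is no netrin receptor. Dcc was named by the same rule and was not analysed here.

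All cells were of the CD1 strain according to the labels. Control cells (Ctrl) carried Zeb2 fl/fl, with both alleles flanked by loxP sites and intact, and the Zeb2 KO cells were Zeb2 -/-. RNA was collected at d0, from ESCs in 2i + LIF (0.4 µM PD0325901, 1 µM CHIR99021 and LIF by the labels, with other doses of both inhibitors in the study's methods), at d4, from embryoid bodies kept in medium with 15% serum, and at d6, after the change at d4 to N2B27 with 500 nM retinoic acid, with 3 libraries for each genotype and day. The methods describe KO lines made by Cre from Ctrl lines and KO clones of a second derivation on a mixed background, and which lines were sequenced was not given in the sources used here, so that the number of clones behind the 9 KO libraries is unknown.

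Levels are TPM, which set the reads of a gene in proportion to its length and to the depth of the library, so that they can be compared between genes. The recovered reads numbered 9407968 to 15282953 per library over 10960 genes. Zeb2, counted over the whole gene, was at 0.123 to 0.138 TPM in Ctrl and 0.0171 to 0.0274 TPM in KO at d0. It was at 1.23 to 1.47 against 0.126 to 0.204 TPM at d4 and at 7.53 to 7.81 against 0.594 to 0.733 TPM at d6. Zeb2 was thus below Ctrl in every KO library of each day, with a log2 fold change of -2.37 ± 0.12 (SE, adjusted p = 6.98e-11) at d6, and at d0 the difference of -0.14 ± 0.12 (SE, adjusted p = 0.36) on the log2(TPM + 1) scale was not called.

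Eph receptors are tyrosine kinases that bind ephrins on the neighbouring cell, and both partners signal. Plexins are the receptors of semaphorins, and most secreted class 3 semaphorins also need a neuropilin as co-receptor. Netrin-1 attracts axons through Dcc and Neo1 and repels them through Unc5 receptors, and Slits repel through Robo receptors. Beyond the nervous system the same ligands and receptors sort cells at tissue boundaries and shape blood vessels, and several of them are present in ESCs and early embryos.

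Between d0 and d6 most of these genes rose in Ctrl, and at d4 and d6 most of them were lower in KO than in Ctrl. A gene was called at an adjusted p below 0.01, by limma on log2(TPM + 1) with Benjamini-Hochberg adjustment over all 10965 genes. At d0 5 of the 46 genes were higher and 9 lower in KO, when 10.6% of all genes were called higher and 16.4% lower. At d4 6 were higher and 33 lower, against 12.7% and 32.7% of all genes. At d6 6 were higher and 27 lower, against 17.9% and 34.3% of all genes. The 46 genes had a median log2 fold change of -0.19, -0.55 and -0.74 on these days in turn, and all genes one of -0.07, -0.16 and -0.14. When the libraries were rescaled by their median ratio the median of all genes moved to -0.03, -0.02 and -0.01. The median of the 46 genes was then -0.43 at d4 and -0.61 at d6, and 25 genes were called lower at d4 and 27 at d6. Shares of all genes were determined for the TPM as deposited alone, and counts under other scalings, here and below, have none beside them. At d6 the median of the genes was -0.47 after quantile normalization and -0.39 among the 24 genes with a mean TPM of 10 or more, and at d0 it lay between -0.31 and -0.06 over the alternatives. The 3 KO and the 3 Ctrl libraries were apart, with no overlap, for 26, 42 and 41 of the 46 genes on the same days, against 51.5%, 65.7% and 63.7% of all genes.

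**Figure D1:**
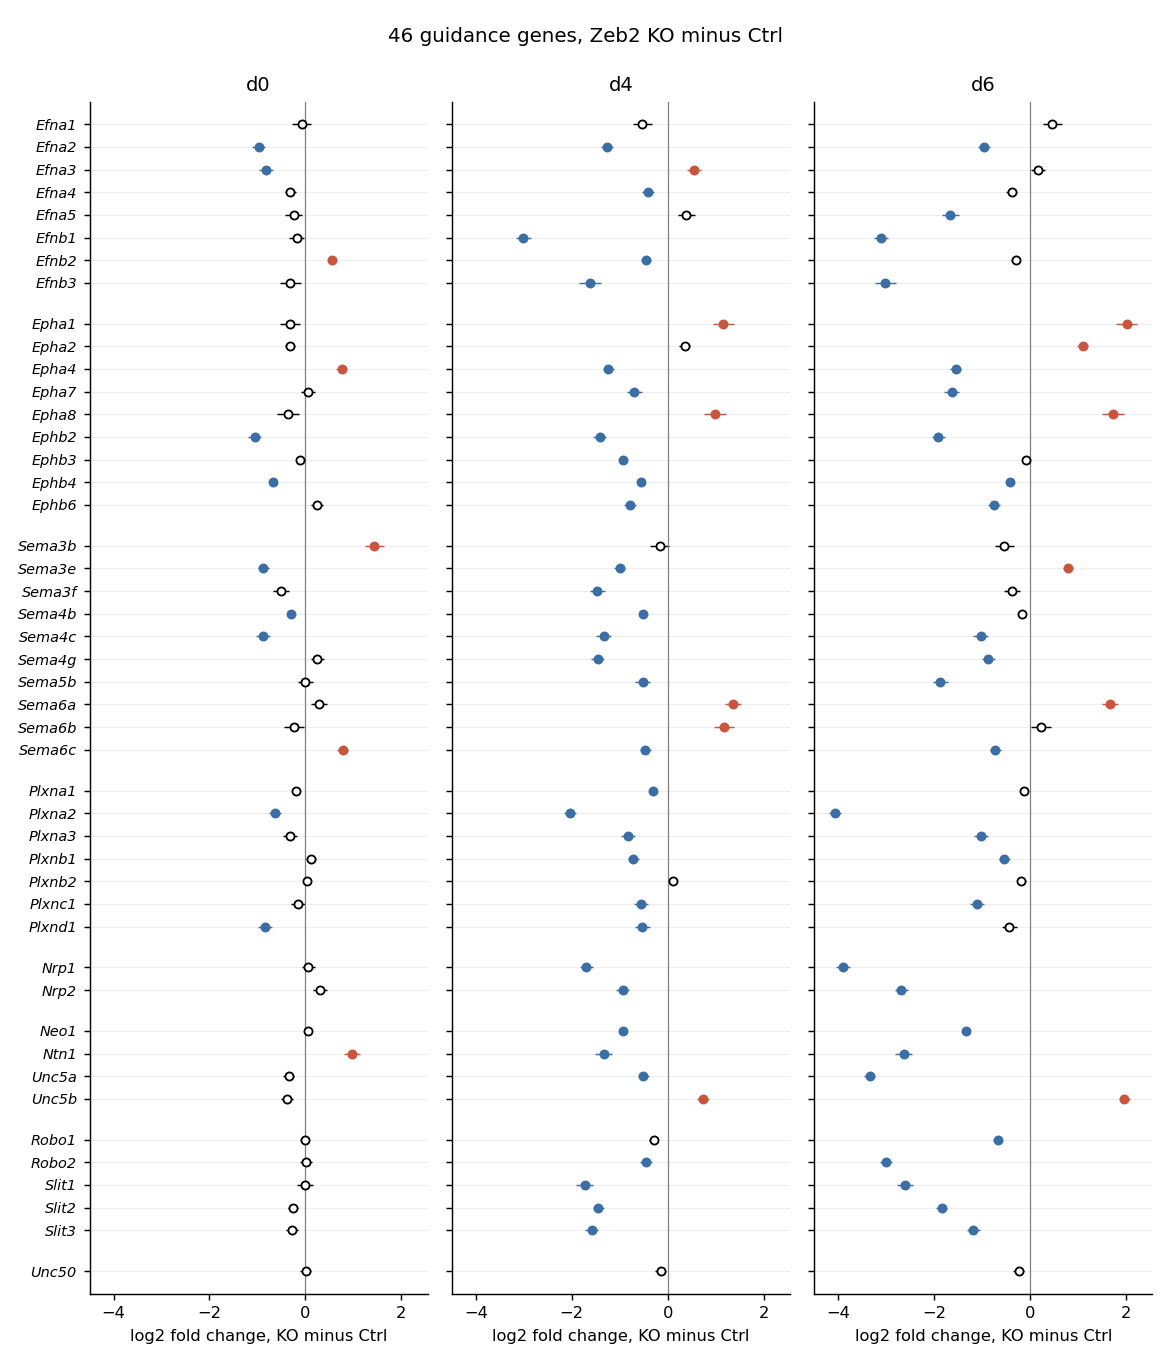
Difference between Zeb2 KO and Ctrl for each of the 46 genes at d0, d4 and d6. The horizontal axis is the log2 fold change (KO minus Ctrl, on log2(TPM + 1)), points are the limma estimates from 3 libraries per group and bars their SE. Filled blue points were called lower in KO, filled red points higher, and open points were not called. At d6 27 points are blue and 6 red, and the lowest are Plxna2 and Nrp1.

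The genes furthest below Ctrl at d6 were Plxna2 (ENSMUSG00000026640, chromosome 1, 194618218 to 194816869, plus strand of GRCm38), Nrp1 (ENSMUSG00000025810, chromosome 8, 128358604 to 128503363, plus strand) and Unc5a (ENSMUSG00000025876, chromosome 13, 54949411 to 55006018, plus strand). Those furthest above were Epha1 (ENSMUSG00000029859, chromosome 6, 42358487 to 42373268, minus strand) and Unc5b (ENSMUSG00000020099, chromosome 10, 60762593 to 60831581, minus strand).

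The table from which the genes come holds a gene only if it reached 5 TPM in at least 3 of the 18 libraries and was not among the 20% of genes that varied least. Of the 46 genes, 11 reached 5 TPM in 3 or more libraries in Ctrl alone (Efna5, Nrp1, Nrp2, Plxna2, Plxnc1, Robo2, Sema3f, Sema5b and all 3 Slits), and Epha8 and Sema6a did so in KO alone. Entry through one genotype alone favours genes whose level differs between the genotypes, and the counts over all 46 genes include these. Among the other 33 genes, 4 were higher and 23 lower in KO at d4, when 13.4% and 31.9% of all genes that reached 5 TPM in 3 libraries of each genotype were called. At d6 4 were higher and 17 lower, against 18.7% and 32.7% of those genes.

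Markers of several cell types differed between the genotypes as well. The sum of 9 neural progenitor markers was 558 to 658 TPM in Ctrl and 300.3 to 349 TPM in KO at d6, when 8 of them were called lower and Otx2, at 8.19 to 10.1 TPM in Ctrl and 153 to 166 TPM in KO, higher. Without Otx2 the sums were 548 to 650.0 and 135 to 185 TPM. The 8 neuronal markers summed to 264 to 299 TPM in Ctrl and 110.0 to 128 TPM in KO, with 4 lower and 2 higher (Elavl3 and Isl1). In KO Dcx was at 0.0146 to 0.0160 TPM. At d0 the neuronal sums were already 273 to 303 TPM in Ctrl and 154 to 178 TPM in KO, largely from Tubb3 and Stmn2. At d4 they were 255 to 272 TPM in Ctrl and 274 to 298 TPM in KO, with 4 markers higher and 2 lower. At d6 mesoderm markers (5 genes, 4 lower) summed to 186 to 244 TPM in Ctrl and 27.5 to 33.1 TPM in KO. Of these Meox1 alone was at 129 to 182 TPM in Ctrl and 0.643 to 0.848 TPM in KO. Endoderm markers (8 genes, 7 lower) summed to 178 to 303 TPM in Ctrl and 39.9 to 66.8 TPM in KO. Neural crest markers (6 genes, 5 lower and Foxd3 higher) summed to 65.4 to 80.7 and 50.9 to 57.6 TPM. Foxd3 alone was at 2.37 to 2.39 TPM in Ctrl and 35.1 to 40.9 TPM in KO, and the other 5 summed to 63.1 to 78.4 and 15.8 to 18.2 TPM. Endothelial markers (6 genes, 3 higher and 2 lower) summed to 33.6 to 38.5 and 43.7 to 57.1 TPM. In the ESCs of d0 the endothelial sums were higher, 97.2 to 108 TPM in Ctrl and 92.5 to 96.2 TPM in KO, mostly from Pecam1 and Eng. Pluripotency markers (10 genes, 9 higher and Klf4 lower) summed at d6 to 937 to 1046 TPM in Ctrl and 4323 to 4715 TPM in KO. At d4 the mesoderm sum was 206 to 253 TPM in Ctrl and 14.6 to 16.9 TPM in KO, with 2 of the 5 genes lower and 3 not called. Most of that Ctrl sum was Meox1, at 185 to 229 TPM in Ctrl and 0.605 to 1.26 TPM in KO. The neural progenitor sums at d4 were 283 to 339 and 257 to 285 TPM. Of these 9 markers 4 were lower and 2 higher at d4, when Otx2 was at 5.38 to 7.94 TPM in Ctrl and 90.8 to 103 TPM in KO, and the sums without Otx2 were 277 to 331 and 165 to 189 TPM. The part of these markers in the differences below was not tested, and in bulk RNA fewer cells of a type and less RNA per cell cannot be told apart.

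Zeb2 binds DNA at the letters CACCT, often present as a pair. The 250 bases upstream of the start are shown for 4 genes, the 2 with the largest positive difference between KO and Ctrl at d6 (Epha1 and Unc5b), the one with the largest negative difference (Plxna2) and Nrp2, also lower in KO and with these letters at several places, from RefSeq on GRCm38.p6. Each is printed from 5′ to 3′ on the strand of its gene, with CACCT or its complement AGGTG in capitals. Epha1 is on the minus strand (chr6:42373269-42373518), Unc5b on the minus strand (chr10:60831582-60831831), Plxna2 on the plus strand (chr1:194619579-194619828) and Nrp2 on the plus strand (chr1:62703067-62703316).
Epha1: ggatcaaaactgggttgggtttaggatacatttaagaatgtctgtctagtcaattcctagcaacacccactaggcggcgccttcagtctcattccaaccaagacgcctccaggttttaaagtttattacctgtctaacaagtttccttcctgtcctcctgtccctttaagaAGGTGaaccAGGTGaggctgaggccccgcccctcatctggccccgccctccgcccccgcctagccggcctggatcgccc
Unc5b: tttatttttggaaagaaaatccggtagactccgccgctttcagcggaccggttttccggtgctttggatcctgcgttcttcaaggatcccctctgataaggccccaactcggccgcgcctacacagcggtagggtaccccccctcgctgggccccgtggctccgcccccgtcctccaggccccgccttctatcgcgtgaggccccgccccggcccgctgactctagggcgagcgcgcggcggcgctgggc
Plxna2: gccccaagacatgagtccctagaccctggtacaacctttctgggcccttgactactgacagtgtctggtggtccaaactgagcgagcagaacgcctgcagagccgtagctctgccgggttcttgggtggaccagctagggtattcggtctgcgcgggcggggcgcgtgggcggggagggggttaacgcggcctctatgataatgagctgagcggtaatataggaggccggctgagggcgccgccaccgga
Nrp2: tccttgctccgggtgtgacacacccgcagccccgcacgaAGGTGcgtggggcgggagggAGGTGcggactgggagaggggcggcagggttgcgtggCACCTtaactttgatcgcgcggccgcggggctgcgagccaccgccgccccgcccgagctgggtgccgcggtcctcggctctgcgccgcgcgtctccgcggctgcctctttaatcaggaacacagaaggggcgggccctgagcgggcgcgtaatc

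The Epha1 sequence held these letters at 2 places that began 9 bases apart, 79 and 70 bases before the start, and the Nrp2 sequence at 3 places, 211, 191 and 154 bases before the start. None was found in the Unc5b and Plxna2 windows. The starts are those of RefSeq, and the Plxna2 window lies inside the span given above for that gene, past its first base. The bases before that first base were not searched. In the window of 300 bases (250 before and 50 after the start), CACCT or AGGTG occurred in 20 of 49 promoters (40.8%) of the 39 genes that matched (all but Efnb3, Ntn1, Plxna1, Sema3b, Sema3f, Sema6a and Slit1), against 51.9% of 32851 mouse promoters. CACCT at 2 or more places was found in 5 of the 49 (10.2%), those of Efnb2, Epha1, Nrp2, Robo1 and Slit2, against 18.2% of all promoters. The longer form CACCTG or CAGGTG, which overlaps the shorter one, occurred in 6 of the 49 (12.2%) and in 20.2% of all promoters. Genes with the letters at 2 or more places were among those higher in KO (Epha1), lower (Nrp2, Slit2, Robo1) and not called (Efnb2) at d6.

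Efnb1 and Efnb3, ephrin-B ligands that span the membrane and signal back into their own cell, were the ephrins furthest below Ctrl in KO at d6. Efnb1 was at 5.82, 8.67 and 9.11 TPM at d0, 71.0, 73.1 and 74.3 at d4 and 68.8, 82.2 and 75.7 at d6 in Ctrl. In KO, Efnb1 was at 7.91, 6.38 and 5.97 TPM at d0, 9.95, 7.59 and 7.23 at d4 and 7.52, 7.18 and 9.07 at d6. The steep rise of Efnb1 at d4 in Ctrl was not seen in KO, and the groups overlapped at d0 and were apart at d4 and d6. The log2 fold change of Efnb1 was -3.01 ± 0.15 (SE, adjusted p = 2.41e-10) at d4 and -3.10 ± 0.15 (SE, adjusted p = 5.75e-11) at d6, when the mean in Ctrl was 9.54 times that in KO. Efnb3 was at 10.1, 9.73 and 9.15 TPM at d0, 9.34, 14.8 and 15.5 at d4 and 66.2, 74.8 and 52.8 at d6 in Ctrl. In KO, Efnb3 was at 5.52, 9.87 and 7.96 TPM at d0, 3.07, 4.27 and 3.30 at d4 and 5.15, 9.63 and 6.97 at d6. The rise of Efnb3 in Ctrl came between d4 and d6, and the log2 fold change was -1.62 ± 0.23 (SE, adjusted p = 1.85e-05) at d4 and -3.01 ± 0.23 (SE, adjusted p = 1.01e-08) at d6, a difference between the 2 days of -1.39 ± 0.32 (SE, adjusted p = 0.00473).

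Efnb2, the third of them and a ligand of arterial endothelium, followed another course. In Ctrl, Efnb2 was at 8.50, 8.48 and 8.53 TPM at d0, 88.6, 92.5 and 94.4 at d4 and 76.7, 77.5 and 76.8 at d6. In KO, Efnb2 was at 10.9, 13.7 and 14.3 TPM at d0, 58.2, 74.6 and 68.8 at d4 and 67.4, 60.4 and 59.9 at d6. Efnb2 rose in both genotypes, from d0 to d6 by a log2 change of 3.04 in Ctrl and 2.19 in KO, and its KO libraries were above Ctrl at d0 and below at d4 and d6. The log2 fold change between the genotypes was 0.55 ± 0.09 (SE, adjusted p = 0.000261) at d0, -0.45 ± 0.09 (SE, adjusted p = 0.000756) at d4 and -0.30 ± 0.09 (SE, adjusted p = 0.012) at d6, which was not called. Efnb2 lies on chromosome 8, whose 668 genes had a median at d0 that was 0.40 above that of all genes (log2), and with the median of each chromosome removed the difference of Efnb2 was 0.20 at d0 (adjusted p = 0.0882) and -0.26 at d4 (adjusted p = 0.0184), neither of which was called. The call at d0 was also lost in a fit to the libraries of d0 alone (0.55, adjusted p = 0.0143), and that at d4 after median-ratio rescaling (-0.30, adjusted p = 0.01005). The 3 ephrin-B ligands together summed to 212, 234 and 205 TPM in the Ctrl libraries at d6 and to 80.1, 77.2 and 75.9 TPM in KO. Efnb2 made up 35.6% ± 2.24 (SD, n = 3) of this sum in Ctrl and 80.4% ± 3.27 in KO.

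Of the ephrin-A ligands, which are anchored to the membrane by a lipid, Efna2 was lower in KO on every day. Efna2 was at 20.7, 18.8 and 30.5 TPM at d0, 44.3, 42.2 and 42.8 at d4 and 57.8, 58.7 and 54.2 at d6 in Ctrl. In KO, Efna2 was at 11.7, 11.3 and 10.4 TPM at d0, 17.1, 18.5 and 16.4 at d4 and 30.2, 31.0 and 25.4 at d6. The groups were apart on each day, with log2 fold changes of -0.98 ± 0.13 (SE, adjusted p = 2.39e-05), -1.27 ± 0.13 (SE, adjusted p = 7.73e-07) and -0.96 ± 0.13 (SE, adjusted p = 8.45e-06), and Efna2 rose between d0 and d6 in both genotypes, by 1.28 ± 0.13 in Ctrl and 1.30 ± 0.13 in KO. Efna4 had the highest level of this class. In Ctrl, Efna4 was at 70.5, 58.8 and 65.2 TPM at d0, 58.4, 59.3 and 55.9 at d4 and 74.5, 66.8 and 59.5 at d6. In KO, Efna4 was at 62.9, 48.1 and 46.2 TPM at d0, 40.5, 46.4 and 43.3 at d4 and 44.3, 57.8 and 51.9 at d6. It was called lower at d4 alone, with -0.41 ± 0.12 (SE, adjusted p = 0.00762), and that call was lost in 12 of 28 alternatives, 7 of which left out 1 library (replicate 3 of Ctrl d0, any replicate of Ctrl d4, replicate 1 or 3 of KO d4, or replicate 2 of Ctrl d6), with values of -0.24 (voom) to -0.43. Efna5 was lower at d6 alone, with -1.66 ± 0.18 (SE, adjusted p = 7.34e-07), after a rise in Ctrl from 1.25, 1.24 and 2.19 TPM at d4 to 14.7, 17.0 and 16.5 TPM at d6. Efna5 reached 5 TPM in Ctrl libraries alone, an entry that favours genes lower in KO. Efna3 was lower in KO at d0 (-0.82) and higher at d4 (0.55), and Efna1 was not called on any day. Exons of genes on the other strand cover 14.1% of the exonic bases of Efna3, 10.51% of Efna4 and 7.27% of Sema4c, and as the strand setting of the counting was not given in the sources used here, reads there cannot be told apart.

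Receptors of the EphA class moved in opposite directions. Epha1 rose further in KO than in Ctrl. In Ctrl, Epha1 was at 0.438, 0.782 and 0.484 TPM at d0, 4.35, 6.36 and 6.11 at d4 and 11.2, 13.8 and 21.5 at d6. In KO, Epha1 was at 0.182, 0.363 and 0.215 TPM at d0, 10.1, 16.6 and 15.0 at d4 and 74.7, 56.3 and 61.4 at d6. The KO libraries were all below Ctrl at d0, where they rested on 1 to 4 reads each, and all above it at d4 and d6, with log2 fold changes of 1.16 ± 0.22 (SE, adjusted p = 0.000284) and 2.02 ± 0.22 (SE, adjusted p = 6.63e-07). The difference changed by 2.34 ± 0.31 (SE, adjusted p = 9.05e-06) from d0 to d6. Epha1 shares 6.01% of its exonic bases with exons of Zyx on the other strand. Epha2, the EphA receptor with the highest level in ESCs, fell in Ctrl between d0 and d6, and its change in KO was not called. In Ctrl, Epha2 was at 103, 93.5 and 110.3 TPM at d0, 79.3, 83.6 and 85.2 at d4 and 33.7, 26.7 and 32.3 at d6. In KO, Epha2 was at 79.3, 82.0 and 83.1 TPM at d0, 99.6, 106 and 113 at d4 and 83.8, 59.7 and 60.6 at d6. Its KO libraries were below Ctrl at d0 and above at d4 and d6, with a called difference at d6 of 1.10 ± 0.11 (SE, adjusted p = 3.68e-07) and a change of the difference since d0 of 1.42 ± 0.16 (SE, adjusted p = 1.68e-06). Epha8 had the lowest EphA level in Ctrl at d4 and d6. In Ctrl, Epha8 was at 0.253, 0.241 and 1.21 TPM at d0, 0.834, 1.36 and 1.06 at d4 and 1.42, 1.93 and 1.97 at d6. In KO, Epha8 was at 0.190, 0.202 and 0.149 TPM at d0, 2.36, 2.70 and 4.60 at d4 and 9.56, 8.14 and 7.06 at d6. Its KO libraries were above Ctrl at d4 and d6 without overlap, by 0.99 ± 0.23 (SE, adjusted p = 0.00154) and 1.74 ± 0.23 (SE, adjusted p = 6.11e-06), and without replicate 3 of KO d4 the call at d4 was lost (0.77, adjusted p = 0.0108). Epha8 reached 5 TPM in KO libraries alone, an entry that favours genes higher in KO.

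Epha4, which binds ephrins of both classes and limits the crossing of corticospinal axons, turned from higher to lower in KO. In Ctrl, Epha4 was at 13.1, 14.3 and 11.3 TPM at d0, 8.61, 9.06 and 8.94 at d4 and 8.34, 8.25 and 8.39 at d6. In KO, Epha4 was at 21.7, 24.1 and 21.4 TPM at d0, 3.28, 2.93 and 3.39 at d4 and 2.43, 1.82 and 2.33 at d6. The groups did not overlap on any day. The log2 fold change of Epha4 was 0.75 ± 0.11 (SE, adjusted p = 5.11e-05) at d0, -1.23 ± 0.11 (SE, adjusted p = 1.48e-07) at d4 and -1.55 ± 0.11 (SE, adjusted p = 4.70e-09) at d6, and the difference changed by -1.99 ± 0.15 (SE, adjusted p = 7.28e-08) between d0 and d4. Epha7 was lower in KO at d4 (-0.69 ± 0.15) and d6 (-1.63 ± 0.15). Epha1 held 20.9% ± 5.53 (SD, n = 3) of the summed TPM of the 5 EphA receptors in Ctrl at d6 and 43.6% ± 1.55 in KO, and Epha7 23.0% ± 2.26 and 3.24% ± 0.261. The summed EphA level was 73.3 ± 6.76 TPM in Ctrl and 147 ± 25.1 TPM in KO.

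No EphB receptor was called higher in KO on any day. Ephb4, the receptor of Efnb2 on veins, was at 68.9, 70.8 and 78.0 TPM at d0, 55.1, 58.4 and 56.7 at d4 and 45.1, 47.0 and 45.0 at d6 in Ctrl. In KO, Ephb4 was at 46.1, 47.6 and 41.7 TPM at d0, 39.8, 35.8 and 40.2 at d4 and 31.2, 35.7 and 36.1 at d6. Its KO libraries were below Ctrl on each day, with -0.67 ± 0.07 (SE, adjusted p = 3.64e-06), -0.55 ± 0.07 (SE, adjusted p = 1.26e-05) and -0.41 ± 0.07 (SE, adjusted p = 0.00015). The call of Ephb4 at d6 was lost after quantile normalization (-0.25, adjusted p = 0.0102). Ephb2, a receptor of commissural axons, was at 3.73, 3.59 and 4.35 TPM at d0, 13.5, 16.0 and 17.0 at d4 and 23.9, 23.1 and 24.7 at d6 in Ctrl. In KO, Ephb2 was at 1.29, 1.29 and 1.45 TPM at d0, 4.16, 6.07 and 5.38 at d4 and 5.32, 6.45 and 5.23 at d6. Ephb2 rose in both genotypes and was the lower in KO throughout, with -1.06 ± 0.13 (SE, adjusted p = 1.10e-05) at d0, -1.42 ± 0.13 (SE, adjusted p = 2.24e-07) at d4 and -1.91 ± 0.13 (SE, adjusted p = 3.27e-09) at d6. Ephb3 was called lower at d4 (-0.93 ± 0.08) and not at d6 (-0.07 ± 0.08), when the groups overlapped. Ephb6, whose kinase is inactive, was lower at d4 (-0.78 ± 0.13) and d6 (-0.76 ± 0.13). The summed EphB level was 105 ± 1.96 TPM in Ctrl and 69.0 ± 3.75 TPM in KO at d6, an order opposite to that of the EphA sum.

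**Figure D2:**
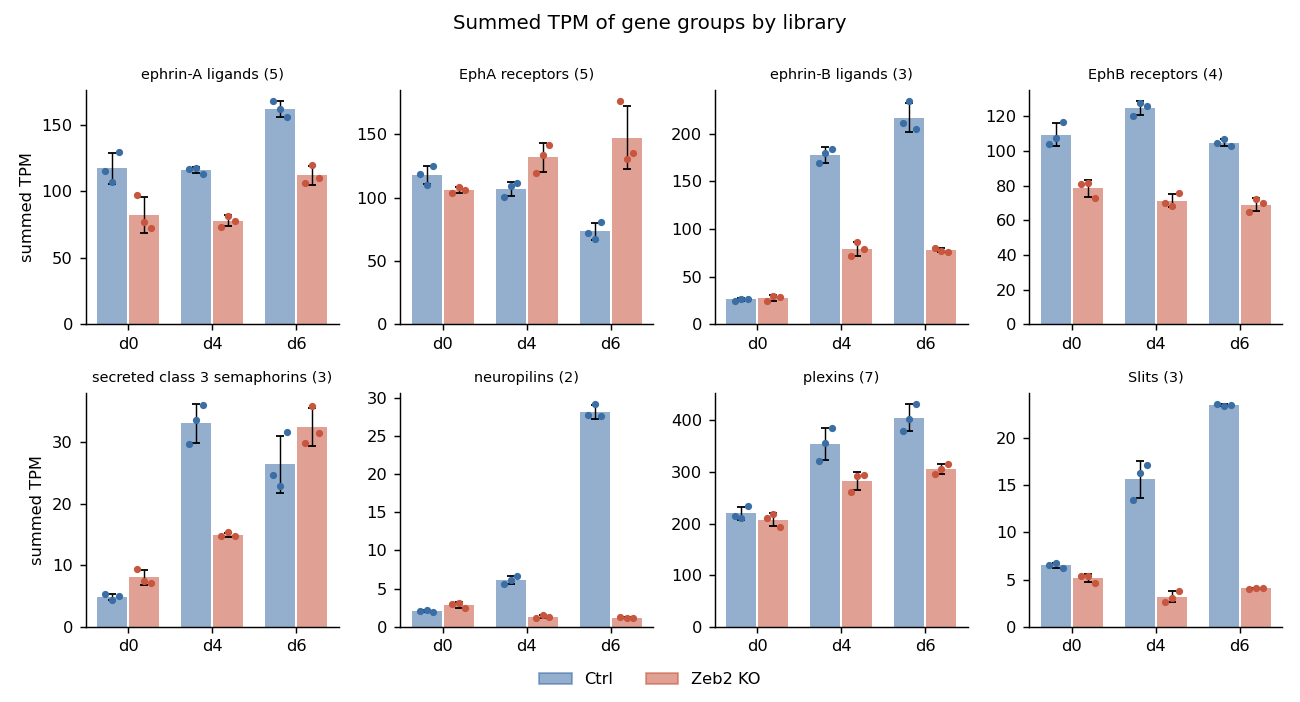
Summed TPM of 8 groups of the genes by genotype and day. Bars are the mean of 3 libraries, points the libraries and error bars the SD, with the number of genes in each group in brackets. At d6 the ephrin-A, ephrin-B, EphB, neuropilin, plexin and Slit sums of KO lie below those of Ctrl. The EphA sum lies above, and the class 3 semaphorin sums overlap.

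Among the secreted class 3 semaphorins, Sema3e changed its order. Sema3e binds Plxnd1 without a neuropilin. In Ctrl, Sema3e was at 1.13, 1.10 and 0.865 TPM at d0, 22.0, 22.8 and 24.1 at d4 and 11.9, 12.2 and 15.4 at d6. In KO, Sema3e was at 0.0856, 0.0855 and 0.152 TPM at d0, 10.8, 11.5 and 10.6 at d4 and 21.8, 25.0 and 23.5 at d6. Sema3e was lower in KO at d0 (-0.87 ± 0.11 (SE, adjusted p = 1.46e-05), on 3 to 5 reads per KO library) and at d4 (-1.001 ± 0.11 (SE, adjusted p = 1.72e-06)) and higher at d6 (0.80 ± 0.11 (SE, adjusted p = 1.10e-05)), without overlap on any day. Between d4 and d6 it fell in Ctrl by 0.77 and rose in KO by 1.03, and the difference between the genotypes changed by 1.80 ± 0.16 (SE, adjusted p = 5.97e-07). Its receptor Plxnd1 was at 2.96, 2.38 and 3.12 TPM at d0, 10.95, 13.7 and 14.0 at d4 and 19.9, 19.3 and 15.3 at d6 in Ctrl. In KO, Plxnd1 was at 1.43, 1.14 and 0.843 TPM at d0, 10.3, 8.14 and 7.59 at d4 and 12.9, 14.1 and 12.6 at d6. Plxnd1 was lower in KO at d0 (-0.84 ± 0.15 (SE, adjusted p = 0.000314)) and d4 (-0.52 ± 0.15 (SE, adjusted p = 0.00667)) and was not called at d6 (-0.43 ± 0.15 (SE, adjusted p = 0.0201)), and its call at d4 was lost in 10 of 28 alternatives. It was lost after each other scaling (lowest in size after quantile normalization, -0.22, adjusted p = 0.252), with a pseudocount of 0.1, with voom, in a fit to d4 alone and without replicate 2 or 3 of either Ctrl d4 or KO d4, with values of -0.22 to -0.57.

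Sema3b, a ligand of both neuropilins, was high in KO before differentiation. In Ctrl, Sema3b was at 2.08, 1.58 and 1.98 TPM at d0, 1.60, 2.18 and 2.34 at d4 and 6.20, 5.53 and 9.68 at d6. In KO, Sema3b was at 8.20, 6.43 and 5.91 TPM at d0, 2.14, 1.44 and 1.54 at d4 and 3.63, 5.82 and 4.19 at d6. All 3 KO libraries at d0 lay above those of Ctrl, with 1.44 ± 0.20 (SE, adjusted p = 3.48e-05), the largest rise of the 46 genes on that day, and the groups overlapped at d4 and d6. Sema3f, which acts through Nrp2, was lower at d4 (-1.46 ± 0.16) and not called at d6 (-0.38 ± 0.16). It reached 5 TPM in 3 or more libraries in Ctrl alone, an entry that favours genes lower in KO.

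Transmembrane semaphorins of classes 4 and 5 were lower in KO or not called. Sema4b had the highest level of the family. In Ctrl, Sema4b was at 123, 118 and 124 TPM at d0, 64.3, 68.8 and 60.4 at d4 and 38.2, 36.3 and 34.7 at d6. In KO, Sema4b was at 101, 101 and 94.7 TPM at d0, 47.7, 42.9 and 44.4 at d4 and 32.6, 32.9 and 31.9 at d6. Sema4b fell in both genotypes and its KO libraries were below Ctrl on every day, with -0.30 ± 0.06 (SE, adjusted p = 0.000844) at d0, -0.51 ± 0.06 (SE, adjusted p = 3.22e-06) at d4 and -0.16 ± 0.06 (SE, adjusted p = 0.0294) at d6, which was not called. The call of Sema4b at d0 was lost after quantile normalization (-0.22) and with chromosome medians removed (-0.21). Sema4c, a ligand of plexin-B2, was at 2.63, 2.28 and 3.75 TPM at d0, 18.6, 21.2 and 24.9 at d4 and 32.9, 35.5 and 30.9 at d6 in Ctrl. In KO, Sema4c was at 1.498, 1.05 and 0.758 TPM at d0, 8.24, 7.998 and 7.50 at d4 and 17.0, 15.9 and 14.4 at d6. It rose by 3.15 ± 0.15 in Ctrl and 3.01 ± 0.15 in KO between d0 and d6, and its difference between KO and Ctrl was -0.88 ± 0.15 (SE, adjusted p = 0.000265), -1.33 ± 0.15 (SE, adjusted p = 2.70e-06) and -1.03 ± 0.15 (SE, adjusted p = 2.38e-05) on the 3 days. The call of Sema4c at d0 was lost in a fit to d0 alone (-0.88, adjusted p = 0.0101). Sema4g was at 9.27, 9.89 and 12.2 TPM at d0, 26.9, 27.9 and 25.1 at d4 and 21.3, 19.5 and 23.5 at d6 in Ctrl. In KO, Sema4g was at 13.4, 13.01 and 11.3 TPM at d0, 8.63, 8.66 and 9.88 at d4 and 13.4, 11.8 and 8.89 at d6. The KO libraries of Sema4g did not rise at d4 as Ctrl did, and the difference was -1.46 ± 0.13 (SE, adjusted p = 2.35e-07) at d4 and -0.87 ± 0.13 (SE, adjusted p = 3.29e-05) at d6. Sema5b was lower at d4 (-0.52 ± 0.16) and d6 (-1.86 ± 0.16). It reached 5 TPM in 3 or more libraries in Ctrl alone, an entry that favours genes lower in KO.

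The 3 class 6 semaphorins, which can act as ligands and as receptors, differed among themselves. Sema6a, a ligand of Plxna2, was at 0.193, 0.217 and 0.296 TPM at d0, 1.48, 1.60 and 1.76 at d4 and 4.06, 4.08 and 4.47 at d6 in Ctrl. In KO, Sema6a was at 0.493, 0.596 and 0.433 TPM at d0, 4.06, 7.73 and 5.81 at d4 and 17.0, 13.2 and 17.0 at d6. It was higher in every KO library on each day, with 0.29 ± 0.17 (SE, adjusted p = 0.191) at d0, which was not called, 1.36 ± 0.17 (SE, adjusted p = 5.05e-06) at d4 and 1.68 ± 0.17 (SE, adjusted p = 2.77e-07) at d6. Sema6a reached 5 TPM in KO libraries alone, an entry that favours genes higher in KO. Sema6b was at 3.00, 2.64 and 2.23 TPM at d0, 1.17, 2.22 and 2.71 at d4 and 8.95, 5.33 and 6.13 at d6 in Ctrl. In KO, Sema6b was at 2.246, 1.73 and 2.30 TPM at d0, 5.25, 6.33 and 5.54 at d4 and 6.18, 9.29 and 8.81 at d6. The groups were apart at d4 alone, with 1.18 ± 0.21 (SE, adjusted p = 0.000184). Sema6c was at 7.97, 7.13 and 7.74 TPM at d0, 8.21, 10.2 and 9.40 at d4 and 11.4, 10.6 and 10.0 at d6 in Ctrl. In KO, Sema6c was at 13.8, 14.8 and 12.8 TPM at d0, 6.64, 5.67 and 6.99 at d4 and 5.25, 6.70 and 6.34 at d6. Sema6c was higher in KO at d0 (0.78 ± 0.11 (SE, adjusted p = 6.00e-05)) and lower at d4 (-0.47 ± 0.11 (SE, adjusted p = 0.00252)) and d6 (-0.72 ± 0.11 (SE, adjusted p = 4.25e-05)), and its call at d4 was lost in 7 of 28 alternatives with values of -0.17 to -0.47. These were each other scaling (-0.17 with adjusted p = 0.259 after quantile normalization), a fit to d4 alone, and the fits without replicate 2 or 3 of Ctrl d4 or replicate 2 of KO d4.

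The plexin with the largest difference was Plxna2, the receptor of Sema6a and, with neuropilins, of class 3 semaphorins. In Ctrl, Plxna2 was at 3.23, 4.23 and 4.22 TPM at d0, 12.6, 11.7 and 14.0 at d4 and 35.5, 39.2 and 39.8 at d6. In KO, Plxna2 was at 2.22, 2.35 and 1.91 TPM at d0, 2.33, 2.12 and 2.59 at d4 and 1.14, 1.44 and 1.47 at d6. Plxna2 rose at each step in Ctrl and fell in KO between d0 and d6, and the groups were apart on every day. The call of the fall in KO was lost in 5 of 28 alternatives, with a pseudocount of 5 (-0.17), in a fit to d0 and d6 alone (-0.43) and without replicate 1 (-0.41) or 2 (-0.38) of KO d0 or replicate 1 of KO d6 (-0.36). The log2 fold change of Plxna2 was -0.63 ± 0.12 (SE, adjusted p = 0.000688) at d0, -2.04 ± 0.12 (SE, adjusted p = 1.79e-09) at d4 and -4.06 ± 0.12 (SE, adjusted p = 1.91e-13) at d6, the lowest value of the 46 genes, when the Ctrl mean was 28.3 times the KO mean. Plxna2 reached 5 TPM in Ctrl libraries alone, an entry that favours genes lower in KO. Its call at d0 was lost in a fit to d0 alone (-0.63, adjusted p = 0.0116). Plxna1 and Plxnb2 were the plexins of highest level. Plxna1 was at 81.0, 80.7 and 96.5 TPM at d0, 159, 169 and 186 at d4 and 108, 121 and 133 at d6 in Ctrl. In KO, Plxna1 was at 77.0, 77.6 and 70.3 TPM at d0, 133, 139 and 143 at d4 and 113, 104 and 117 at d6. The difference was -0.31 ± 0.09 (SE, adjusted p = 0.00598) at d4, and -0.11 ± 0.09 (SE, adjusted p = 0.256) at d6. The call of Plxna1 at d4 was lost in 8 of 28 alternatives, with chromosome medians removed (-0.05, adjusted p = 0.621), after median-ratio rescaling (-0.15), with voom (-0.13), without the eBayes trend and without replicate 2 or 3 of Ctrl d4 or replicate 1 or 2 of KO d4 (-0.25 to -0.32). Exons of Gm26811 on the other strand cover 10.7% of the exonic bases of Plxna1. Plxnb2 was at 113, 111 and 117 TPM at d0, 74.5, 87.9 and 86.9 at d4 and 138, 144 and 165 at d6 in Ctrl. In KO, Plxnb2 was at 116, 124 and 109.7 TPM at d0, 79.6, 95.7 and 93.5 at d4 and 121, 136 and 138 at d6. Its differences of 0.03 ± 0.09, 0.11 ± 0.09 and -0.18 ± 0.09 were not called, and the groups overlapped at d0 and d4. Plxna3, Plxnb1 and Plxnc1 were lower in KO at d4 and d6, with log2 fold changes of -1.02, -0.54 and -1.11 at d6. Of these, Plxnc1 reached 5 TPM in Ctrl libraries alone.

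Neither neuropilin was induced in KO. Both reached 5 TPM in Ctrl libraries alone, an entry that favours genes lower in KO. Nrp1 is a co-receptor for class 3 semaphorins and for VEGF. In Ctrl, Nrp1 was at 0.283, 0.289 and 0.322 TPM at d0, 3.37, 2.80 and 3.34 at d4 and 15.9, 17.4 and 15.8 at d6. In KO, Nrp1 was at 0.151, 0.524 and 0.417 TPM at d0, 0.171, 0.287 and 0.415 at d4 and 0.267, 0.194 and 0.0507 at d6. At d6 Nrp1 had 253 to 372 reads in a Ctrl library and 0 to 4 reads in a KO library, 945 and 7 in all. The log2 fold change was -1.69 ± 0.14 (SE, adjusted p = 8.04e-08) at d4 and -3.89 ± 0.14 (SE, adjusted p = 1.80e-12) at d6, and these values depend on the 1 TPM added to each value. Nrp2 was at 1.82, 1.92 and 1.64 TPM at d0, 2.27, 3.31 and 3.28 at d4 and 11.7, 11.8 and 11.8 at d6 in Ctrl. In KO, Nrp2 was at 2.87, 2.56 and 1.99 TPM at d0, 1.01, 1.30 and 0.859 at d4 and 0.983, 0.931 and 1.07 at d6. Nrp2 rose in Ctrl between d4 and d6, while the KO libraries at d4 and d6 lay below those of d0, with a difference between the genotypes of -0.94 ± 0.14 (SE, adjusted p = 4.03e-05) at d4 and -2.68 ± 0.14 (SE, adjusted p = 1.52e-10) at d6. The 2 neuropilins together were at 28.1 ± 0.931 TPM in Ctrl and 1.17 ± 0.0719 TPM in KO at d6.

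**Figure D3:**
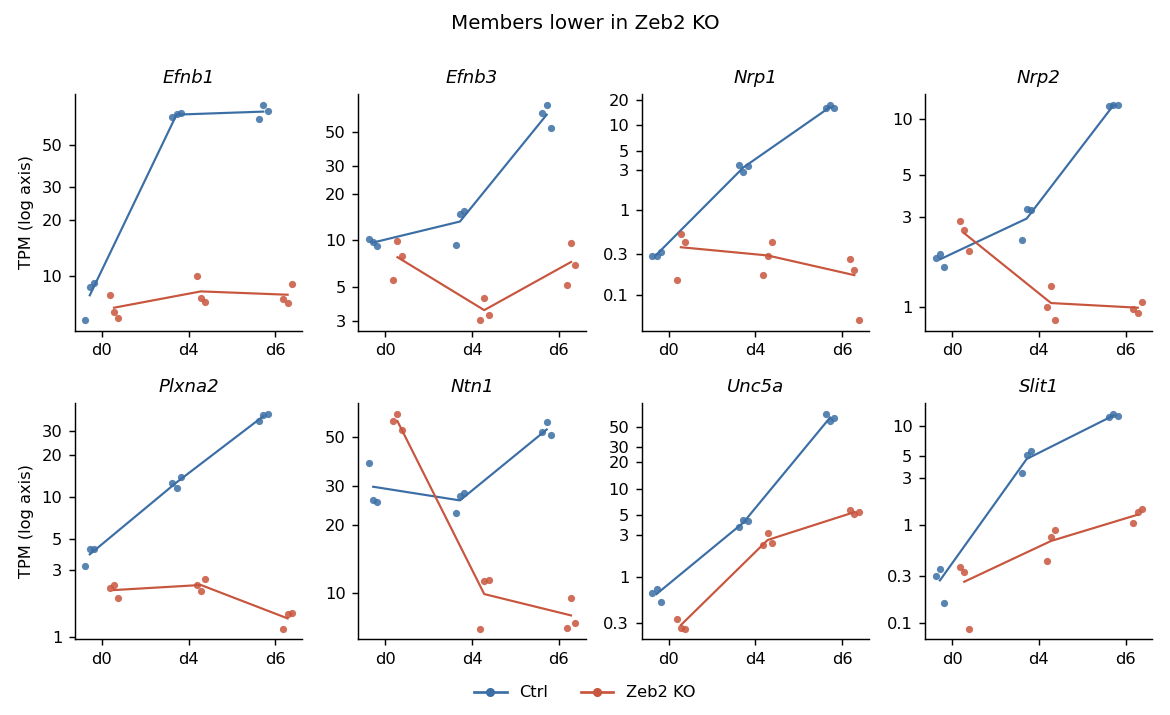
TPM of 8 genes that were lower in Zeb2 KO at d6, by day and genotype. Points are libraries and lines join the means of 3 libraries, on a logarithmic vertical axis. Efnb1 separated at d4, and Ntn1 started higher in KO and ended lower. Unc5a was below Ctrl in every KO library on each day, and its gap widened between d4 and d6.

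Netrin-1 (Ntn1), an attractant of commissural axons from the floor plate, turned over between the genotypes. In Ctrl, Ntn1 was at 38.0, 26.0 and 25.4 TPM at d0, 22.7, 27.0 and 28.0 at d4 and 52.6, 58.2 and 50.8 at d6. In KO, Ntn1 was at 58.8, 63.5 and 53.8 TPM at d0, 6.90, 11.3 and 11.4 at d4 and 6.94, 9.44 and 7.33 at d6. All KO libraries were above Ctrl at d0, and all were below at d4 and d6. The log2 fold change of Ntn1 was 0.97 ± 0.18 (SE, adjusted p = 0.000387) at d0, -1.33 ± 0.18 (SE, adjusted p = 1.11e-05) at d4 and -2.63 ± 0.18 (SE, adjusted p = 2.81e-09) at d6, and the difference changed by -3.61 ± 0.25 (SE, adjusted p = 8.38e-09) from d0 to d6. Neo1, a receptor for netrins and for repulsive guidance molecules, was at 64.6, 69.0 and 76.2 TPM at d0, 115, 117 and 123 at d4 and 124, 134 and 142 at d6 in Ctrl. In KO, Neo1 was at 77.3, 73.4 and 66.1 TPM at d0, 61.1, 63.2 and 60.6 at d4 and 58.2, 49.8 and 49.1 at d6. Neo1 overlapped at d0, rose in Ctrl and fell in KO, with differences of -0.93 ± 0.08 (SE, adjusted p = 9.14e-08) at d4 and -1.33 ± 0.08 (SE, adjusted p = 5.90e-10) at d6.

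The 2 Unc5 receptors, which mediate repulsion by netrin-1, went in opposite directions. Unc5a was at 0.657, 0.730 and 0.523 TPM at d0, 3.69, 4.41 and 4.24 at d4 and 71.3, 57.9 and 63.6 at d6 in Ctrl. In KO, Unc5a was at 0.328, 0.262 and 0.258 TPM at d0, 2.29, 3.11 and 2.44 at d4 and 5.66, 5.20 and 5.38 at d6. Its rise in Ctrl between d4 and d6, 3.67 ± 0.12 on the log2 scale, was the largest of the 46 genes for these days, against 0.83 ± 0.12 in KO, and the difference was -0.51 ± 0.12 (SE, adjusted p = 0.00212) at d4 and -3.34 ± 0.12 (SE, adjusted p = 1.80e-12) at d6. The call of Unc5a at d4 was lost in 7 of 28 alternatives, after quantile normalization (-0.16, adjusted p = 0.281), median-ratio rescaling (-0.39) or removal of chromosome medians (-0.34), with voom (-0.48), in a fit to d4 alone (-0.51), and without replicate 2 of Ctrl d4 (-0.46) or replicate 1 of KO d4 (-0.44). Unc5b, which is also a receptor of endothelial cells, was at 31.7, 27.8 and 32.8 TPM at d0, 32.1, 34.9 and 35.5 at d4 and 31.5, 27.1 and 35.5 at d6 in Ctrl. In KO, Unc5b was at 25.4, 24.8 and 20.4 TPM at d0, 50.3, 67.1 and 57.3 at d4 and 112, 123 and 143 at d6. Unc5b did not change by a called amount in Ctrl between d0 and d6 and rose in KO, and its KO libraries were above Ctrl by 0.74 ± 0.12 (SE, adjusted p = 0.000105) at d4 and 1.97 ± 0.12 (SE, adjusted p = 1.28e-09) at d6. At d6 Unc5b made up 32.8% ± 2.70 (SD, n = 3) of the summed TPM of both receptors in Ctrl and 95.8% ± 0.608 in KO, and the sum itself was 95.6 ± 9.35 TPM and 131 ± 15.9 TPM. Of the 6 endothelial markers beside it, Etv2, Pecam1 and Eng were higher in KO at d6 and Tie1 and Flt1 lower. In Ctrl Etv2, Pecam1 and Eng had means of 6.61, 37.8 and 46.9 TPM at d0, against 2.90, 5.99 and 11.4 TPM at d6. Tie1 and Flt1 were at 1.31 and 0.212 TPM in Ctrl at d0, against 6.93 and 6.78 TPM at d6.

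**Figure D4:**
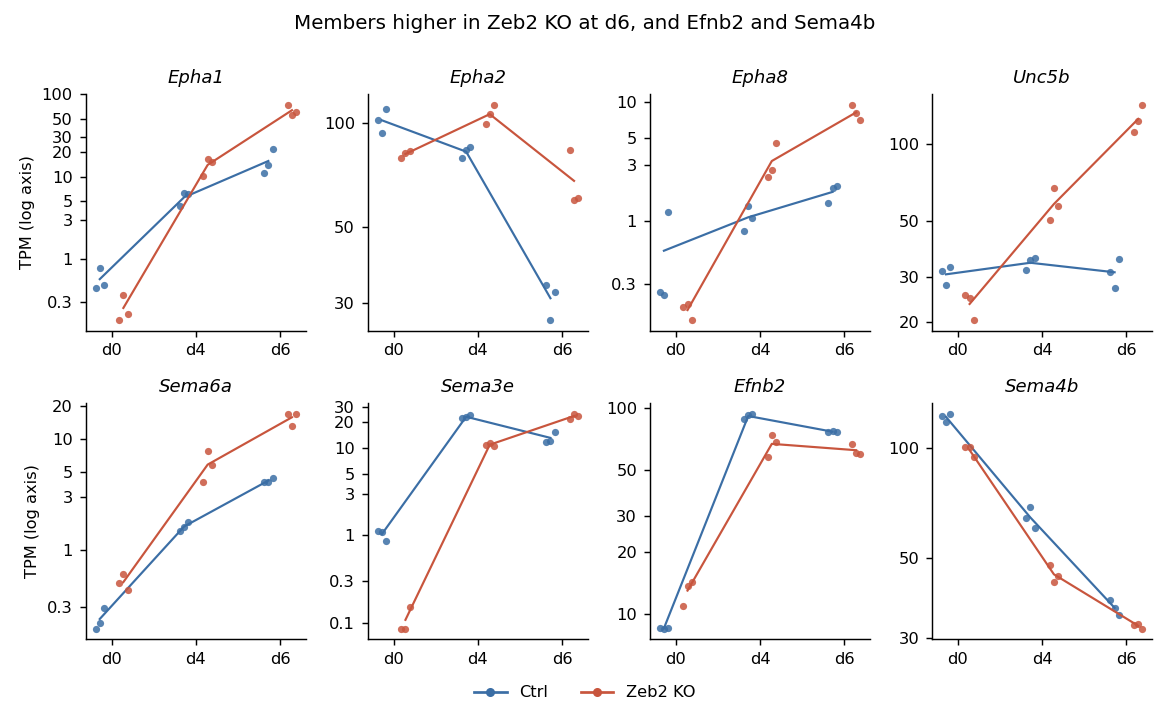
TPM by day and genotype of the 6 genes higher in Zeb2 KO at d6 (Epha1, Epha2, Epha8, Unc5b, Sema6a and Sema3e) and of Efnb2 and Sema4b, which were not called at d6. Points are libraries and lines join the means of 3 libraries, on a logarithmic vertical axis. Unc5b stays between 27.1 and 35.5 TPM in Ctrl and rises to 112 to 143 TPM in KO.

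The 3 Slit ligands were all lower in KO at d4 and d6. All 3 reached 5 TPM in Ctrl libraries alone, an entry that favours genes lower in KO. Slit1 was at 0.301, 0.358 and 0.159 TPM at d0, 3.34, 5.04 and 5.56 at d4 and 12.3, 13.4 and 12.7 at d6 in Ctrl. In KO, Slit1 was at 0.375, 0.329 and 0.0886 TPM at d0, 0.424, 0.748 and 0.881 at d4 and 1.03, 1.33 and 1.43 at d6. The groups of Slit1 overlapped at d0 and were apart later, with -1.73 ± 0.17 (SE, adjusted p = 4.90e-07) at d4 and -2.61 ± 0.17 (SE, adjusted p = 1.92e-09) at d6. Slit3 was at 0.781, 0.542 and 0.604 TPM at d0, 6.99, 7.92 and 8.38 at d4 and 7.42, 6.37 and 6.88 at d6 in Ctrl. In KO, Slit3 was at 0.527, 0.259 and 0.287 TPM at d0, 1.65, 1.77 and 2.38 at d4 and 2.57, 2.46 and 2.41 at d6. Its difference was -1.58 ± 0.13 (SE, adjusted p = 8.99e-08) at d4 and -1.18 ± 0.13 (SE, adjusted p = 1.26e-06) at d6. Slit2 fell in both genotypes between d0 and d6 and was lower in KO, with -1.44 ± 0.11 at d4 and -1.84 ± 0.11 at d6. The 3 Slits summed to 23.6, 23.4 and 23.5 TPM in Ctrl and 4.04, 4.07 and 4.15 TPM in KO at d6.

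Robo1, the Slit receptor with the higher level, was at 23.4, 23.4 and 25.3 TPM at d0, 33.9, 32.3 and 35.7 at d4 and 26.6, 27.6 and 26.8 at d6 in Ctrl. In KO, Robo1 was at 23.0, 25.4 and 23.0 TPM at d0, 25.3, 26.5 and 30.9 at d4 and 18.95, 13.9 and 17.1 at d6. The groups of Robo1 overlapped at d0 and were apart at d4 and d6, and it was called lower in KO at d6 alone, with -0.67 ± 0.10 (SE, adjusted p = 2.15e-05). Robo2 had 455 to 664 reads in a Ctrl library at d6 and 1 to 4 in a KO library, and 29 to 42 against 0 to 2 at d4. Its log2 fold change was -2.997 ± 0.12 (SE, adjusted p = 5.88e-12) at d6. Robo2 reached 5 TPM in Ctrl libraries alone, an entry that favours genes lower in KO. Unc50, which matched by name alone, did not differ by a called amount on any day, with 0.01 ± 0.11, -0.15 ± 0.11 and -0.23 ± 0.11.

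The course of the 46 genes over time was compared within each genotype, with shares of all genes for the TPM as deposited alone. In Ctrl 35 rose and 7 fell between d0 and d6, against 45.8% and 25.8% of all genes, with a median change of 1.37 against 0.26 for all genes, and after median-ratio rescaling, which brought the median of all genes to 0.04, 33 rose and 7 fell. In KO 23 rose and 10 fell, against 40.3% and 27.4% of all genes, with medians of 0.44 and 0.17. After quantile normalization the split in KO was 17 higher and 15 lower. Of the 35 genes that rose in Ctrl, 21 also rose in KO, 9 were not called in KO (Efnb1, Efnb3, Ephb6, Nrp1, Plxnb2, Robo2, Sema3b, Sema4g and Sema5b), and 5 fell in KO (Neo1, Nrp2, Ntn1, Plxna2 and Sema6c). The fall of Plxna2 in KO was not called in 5 of 28 alternatives and the rise of Sema6c in Ctrl in 6, one of which (quantile normalization) gave -0.39 (adjusted p = 0.0106). Efna1 and Unc5b rose in KO and were not called in Ctrl. A moderated F test of the whole course found a difference between the genotypes for 36 of the 46 genes, when 48.7% of all genes were called. Of the 11 genes that reached 5 TPM in 3 or more libraries in Ctrl alone, all but Slit2 did so at d4 or d6 and not at d0. Epha8 and Sema6a did the same in KO alone. A rise thus went with the entry of these genes, and the counts of courses were not split by entry.

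**Figure D5:**
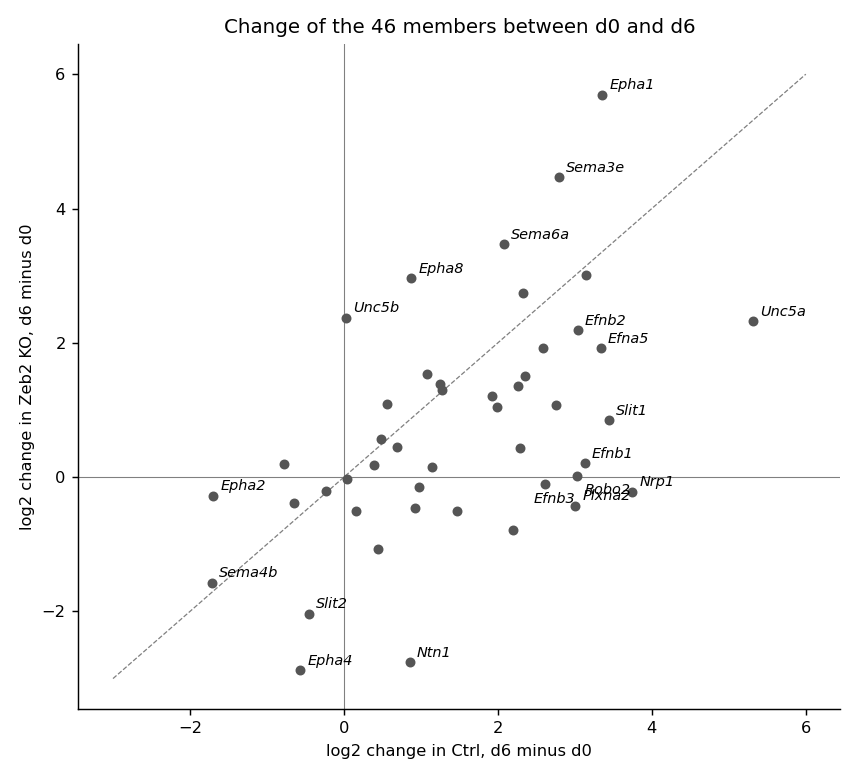
Log2 change from d0 to d6 of each of the 46 genes in Ctrl (horizontal axis) and in Zeb2 KO (vertical axis), as limma estimates on log2(TPM + 1). The dashed line marks equal change, and a point below it rose less or fell more in KO. Nrp1, Ntn1 and Plxna2 lie farthest below the line, and Unc5b, Epha1 and Epha8 farthest above it.

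The steps before and after d4 were also compared, again with shares of all genes for the TPM as deposited alone. Between d0 and d4 30 genes rose and 6 fell in Ctrl (45.1% and 22.3% of all genes), and 23 rose and 11 fell in KO (35.8% and 20.9%), which became 15 and 15 after quantile normalization. Between d4 and d6, after retinoic acid was added, 21 rose and 6 fell in Ctrl (22.6% and 21.5% of all genes), which became 20 and 10 after quantile normalization. In KO 15 rose and 7 fell over these days (21.5% and 19.9% of all genes), and without replicate 3 of KO d4 the 7 became 4. The difference between the genotypes was itself different at d6 and d4 for 16 genes (13.4% of all genes). In 10 of them it moved down (6.29% of all genes), furthest in Unc5a (-2.84 ± 0.17), Robo2 (-2.55 ± 0.17), Nrp1 (-2.20 ± 0.20), Efna5 (-2.05 ± 0.25) and Plxna2 (-2.02 ± 0.17). In 6 it moved up (7.1%), furthest in Sema3e (1.80 ± 0.16), Unc5b (1.23 ± 0.17) and Sema3f (1.09 ± 0.23). Robo2, Nrp1, Efna5 and Plxna2 reached 5 TPM in Ctrl alone. For Robo2, Nrp1 and Efna5 this was at d6 alone, so that a high level in Ctrl at d6 was a condition of their entry. These counts were not split by entry.

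Proteins that act inside the cell downstream of these receptors were described from a list of 47 genes, of which 38 were measured. At d6 3 of the 38 were higher and 25 lower in KO, when 17.9% and 34.3% of all genes were called, and their median on the log2 scale was -0.50. At d0 3 were higher and 10 lower, against 10.6% and 16.4% of all genes. Trim9, a ubiquitin ligase that binds the netrin receptor Dcc, was at a mean of 10.9 TPM in Ctrl and 0.0675 TPM in KO at d6, a log2 fold change of -3.47 ± 0.13 (SE, adjusted p = 3.74e-12). Its relative Trim67 went the other way, with 0.893 TPM in Ctrl and 14.6 TPM in KO (3.05 ± 0.13, adjusted p = 1.45e-11). Dpysl3, of the collapsin response mediator proteins that relay semaphorin signals, was at 99.9 TPM in Ctrl and 9.49 TPM in KO (-3.27 ± 0.12, adjusted p = 2.09e-12). Trim9 reached 5 TPM in Ctrl libraries alone and Trim67 in KO libraries alone. Such entry favours genes whose level differs between the genotypes, and the counts of this list were not split by entry.

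Of 30 other guidance ligands, receptors and adhesion proteins, 18 were measured, and at d6 2 were higher and 15 lower in KO (17.9% and 34.3% of all genes), with a median of -1.91. At d4 1 was higher and 14 lower (12.7% and 32.7% of all genes). The largest differences at d6 were those of Draxin, a secreted protein that binds Dcc (40.6 TPM in Ctrl and 1.19 TPM in KO, -4.24 ± 0.22, adjusted p = 1.02e-10), of Flrt3, an adhesion protein that binds Unc5 receptors (29.9 and 2.53 TPM, -3.13 ± 0.14, adjusted p = 3.37e-11), and of Gas1, a co-receptor of Sonic hedgehog (205 and 25.2 TPM, -2.97 ± 0.14, adjusted p = 5.57e-11). Draxin and Flrt3 reached 5 TPM in Ctrl libraries alone, an entry that favours genes lower in KO. The counts of this list were not split by entry.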

How the data were processed

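RNA-seq of 18 libraries (Ctrl and Zeb2 KO, d0, d4 and d6 of ND, 3 replicates each) was used. Reads (36 bp, single) were aligned by the authors with TopHat2 2.0.13 on GRCm38 and counted per gene with featureCounts 1.4.6. The authors converted these to TPM and filtered genes on biotype, on 5 TPM in 3 samples and on variability, and the authors' own tests used DESeq2. The deposited TPM table has 11046 entries. Removing 81 duplicate entries, in favour of the earlier one each time, left 10965 genes. Its 3 summary columns on the spread of each gene over all libraries were not used.

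Groups and replicate numbers came from the sample labels. Whole reads were recovered from the TPM values for 99.95% of genes (tolerance 1e-06, the values held whole numbers once 1 read per gene was taken off) and served for depth, for levels near 0 and for voom. Tests used limma 3.58.1 in R 4.3.3 on log2(TPM + 1) with a mean per group (6 groups), eBayes with an intensity trend, 2-sided, adjusted after Benjamini-Hochberg over all genes, at a threshold of 0.01. Fold changes on this scale understate the change of genes at low levels. Differing courses were tested with a moderated F test. The methods text counts the 3 replicates of a stage as separate experiments, and p-values measure the spread between them. The steps were tested on simulated data. Positions and overlaps came from GENCODE M21 and promoters from RefSeq. Other steps ran in Python 3.11.15 (pandas 2.3.3, numpy 2.4.6, matplotlib 3.10.9, scipy 1.17.1).

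Genes described in full were, on each day and in each direction, the 5 called genes with the largest difference without overlap between the groups, and in each family the 2 with the highest mean TPM. Genes outside this rule are given by fold change or count. The genes were found by name, and the families and lists were picked with earlier results of these data known. Alternatives were a pseudocount of 0.1 or 5, only genes of mean TPM 10 or more, another scaling (median ratio, quantile, chromosome medians removed), voom on the reads, the days in the fit, the eBayes trend, a replicate block and each library in turn.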

Additional observations from a re-analysis of the deposited data

Results flagged for a closer look

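The difference between KO and Ctrl changed between days, by a test of the change itself (limma, adjusted p below 0.01), for several genes, and the course as a whole differed for 36 of the 46 genes. Values are changes of the log2 fold change, and their causes were not tested.

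From d4 to d6 the change was -2.84 in Unc5a, -2.55 in Robo2, -2.20 in Nrp1, -2.05 in Efna5, -2.02 in Plxna2, -1.74 in Nrp2, -1.39 in Efnb3, -1.34 in Sema5b, -1.30 in Ntn1 and -0.94 in Epha7. It moved up by 1.80 in Sema3e, 1.23 in Unc5b, 1.09 in Sema3f, 0.86 in Ephb3, 0.74 in Epha2 and 0.35 in Sema4b. For Ephb3, Sema3f and Sema4b this moved the difference toward 0, for Epha2 and Unc5b away from it, and for Sema3e across it.

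Since d0 the sign of the difference turned in 6 genes called on both days in opposite directions, though Efnb2 lost its call at d0 in 2 alternatives and at d4 in 2, and Sema6c its call at d4 in 7 and Sema3e its call at d0 in 1 of 28. The calls of Efna3, which is not among the genes described in full, were not followed over the alternatives. From d0 to d4 the change was -2.31 in Ntn1, -1.99 in Epha4, -1.24 in Sema6c, -1.0 in Efnb2 and 1.36 in Efna3. From d0 to d6 it was -3.61 in Ntn1, -2.31 in Epha4, -1.5 in Sema6c and 1.67 in Sema3e.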

How the results depend on the processing

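With a minimum mean TPM of 10 only 24 of the 46 genes were left, and counts fell with their number, to 2 higher at d0, 3 higher and 17 lower at d4, 13 lower at d6, 15 higher from d0 to d4, 8 higher from d4 to d6 and 16 higher from d0 to d6 in Ctrl, 10 higher and 6 lower from d0 to d4, 8 higher from d4 to d6 and 10 higher and 6 lower from d0 to d6 in KO, 4 with a difference that moved down from d4 to d6, and 17 with a differing course. Genes lower from d4 to d6 in Ctrl numbered 10 after quantile normalization and 10 with voom, and genes higher from d0 to d4 in KO 15 after quantile normalization. The causes were not tested. The other counts stayed within 1.5 times of those reported. Leaving out 1 library gave 4 to 7 genes higher and 26 to 34 lower at d4, 6 to 7 higher and 27 to 29 lower at d6, and 4 to 7 lower from d4 to d6 in KO.

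The median log2 fold change of the genes ranged from -0.31 to -0.06 at d0, -0.76 to -0.38 at d4 and -0.82 to -0.39 at d6, where it was -0.39 with a minimum mean TPM of 10 and -0.47 after quantile normalization.

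Single values were followed over the alternatives only for the genes described in full, which were picked by large differences or high levels. Of their 202 called values, 163 kept their call and sign in each of 28 alternatives (18 of them left out 1 library), 38 lost the call in at least 1, and 4 changed sign in at least 1. Calls of the other genes were not followed one by one. Signs changed after quantile normalization for Epha8 (-0.086), Sema6b (-0.0027) and Sema6c (-0.39) from d0 to d6 and Nrp2 (-0.39) from d0 to d4 in Ctrl, and between KO and Ctrl for Sema3b at d4 (0.26), Sema4b at d6 (0.057), Robo1 (0.018) and Slit1 (0.12) at d0. With chromosome medians removed they changed for Nrp1 (-0.29), Robo1 (0.14), Sema6b (0.063) and Slit1 (0.11) at d0, Sema3b at d4 (0.018) and Plxna1 at d6 (0.11). Median-ratio rescaling gave 0.024 for Plxna1 at d6 and 0.029 for Robo1 at d0, and voom 0.044 for Plxna1 at d6, 0.039 for Robo1 at d0 and 0.0058 for Sema4b at d6. Over the fits without 1 library, uncalled values at d0 crossed 0 for Neo1 (-0.0084 to 0.11), Nrp1 (-0.023 to 0.18), Plxnb2 (-0.010 to 0.076), Robo1 (-0.058 to 0.023) and Slit1 (-0.079 to 0.090).

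The labels number the replicates alike in each group. Deviations of libraries with the same number correlated between -0.09 and 0.34, and 29 of 45 pairs were over 0.1. Libraries of unlike numbers were not compared, so that these values do not decide whether the samples were paired. The main fit held no term for the replicate number. With the replicate number as a block, 6 genes were called higher and 32 lower at d4 and 6 higher and 27 lower at d6.

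At 0 to 4 reads per library, as for Nrp1 and Robo2 in KO at d6, the size of a fold change is not determined.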

Other observations

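Shifts of whole chromosomes accompanied the genotype at d0. The median log2 fold change of the 668 genes of chromosome 8 was 0.33 and that of the 440 genes of chromosome 12 was 0.36, when the median of all genes was -0.07, and at d6 they were -0.15 and -0.18 against -0.14. None of the 46 genes lies on chromosome 12, and Efnb2 and Nrp1 lie on chromosome 8. Chromosome 6, with Epha1, Ephb6, Plxna1 and Plxnd1, was at 0.08 at d0.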
